A study of Zea mays with 303 samples.

Results

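Aquaporins are the channels through which plant cells pass water and small uncharged solutes across their membranes, and 8 genes that carry an aquaporin symbol were followed across the single cells of maize anthers. They were taken by symbol from the table of transcript counts and are 8 of its 17140 features, few of which bear a symbol. Of them, 4 encode plasma membrane intrinsic proteins (PIP1-3, PIP2-1, PIP2-2 and PIP2-6), 1 a tonoplast intrinsic protein (TIP1-1), 2 nodulin 26-like intrinsic proteins (NIP1-1 and NIP3-1) and 1 a small basic intrinsic protein (SIP1-2). All 8 symbols were found as maize genes in the RefSeq gene table. Other genes of the family may be among the features that carry an identifier and no symbol, and those were not analysed here.

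The cells came from anthers at early meiosis of greenhouse plants of the maize inbred line W23 bz2, bz2 being an allele of the anthocyanin gene bronze2. Fixation was in Farmer's solution, a mixture of alcohol and acetic acid, and enzymes that loosen cell walls freed the cells, which were sorted on a BioSorter or a Hana instrument. Transcripts were counted with a modified CEL-Seq2 protocol, which reads the 3′ end of each transcript and tags each copy with a unique molecular identifier (UMI). All cells formed 1 group, with no plant, culture or cell type named, and their titles place them in 4 library pools with index numbers 6, 11, 28 and 29. Those pools held 55, 78, 79 and 91 cells, with median depths of 2942, 2803, 1162 and 1746 UMIs per cell and 800166 UMIs in all. The pools are treated as technical batches, and nothing in the sources used here says what else differed between them. No comparison below could be tested across replicates, so values stand with exact 95% intervals that cover counting error only, and no p-value is given.

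The subfamilies differ in where the protein sits and what it passes. PIPs carry water across the plasma membrane, and in maize PIP1 proteins reach that membrane through association with PIP2 proteins. TIPs carry water across the membrane of the vacuole, and NIPs pass solutes such as glycerol and boric acid. SIPs are known from Arabidopsis as channels of the endoplasmic reticulum. In anthers, water movement is part of the expansion of cells and of the later drying and opening of the organ.

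Aquaporin transcripts were a small part of the RNA, and 3 of the 4 subfamilies supplied most of them. The 8 genes had 1581 UMIs together, 0.198% of all UMIs or 1976 CPM (counts scaled to a total of 1000000 UMIs; 1880 to 2076). A UMI of at least 1 of them was present in 81.2% of the cells, and 57 cells had none. The 4 PIP genes took 36.1% of the aquaporin UMIs, SIP1-2 took 27.7%, TIP1-1 took 26.5% and the 2 NIP genes took 9.68%. Since these counts come from transcript ends they do not scale with transcript length, and CPM are set side by side without division by length. How well the end of each gene was captured and aligned was not measured.

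SIP1-2, the small basic member, stood at 547 CPM (497 to 601), with 438 UMIs, a UMI in 45.2% of cells and up to 17 in 1 cell. TIP1-1, the vacuolar channel, stood at 524 CPM (475 to 576), with 419 UMIs, a UMI in 37.6% of cells and up to 27 in 1 cell. The intervals of these most abundant members overlapped. PIP2-1, a water channel of the plasma membrane, followed at 324 CPM (285.5 to 366) in 39.9% of cells, and its paralog PIP2-2 at 238.7 CPM (206.05 to 275.06) in 32.0% of cells. Reads of these 2 paralogs could be split between them where the aligner could not tell their ends apart, so their separate levels are uncertain. NIP1-1 had 173.7 CPM (146.04 to 205.1) in 16.8% of cells, and PIP1-3, the partner-dependent PIP1 member, had 142.5 CPM (117.5 to 171.2) in 23.8% of cells. PIP1-3 shares its gene table entry with the name PIP1-4.

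NIP3-1 and PIP2-6 were near the limit of detection. NIP3-1, known in maize as the boric acid channel that is mutated in tassel-less1, had 14 UMIs in 12 cells (17.5 CPM, 9.57 to 29.4). PIP2-6 had 7 UMIs in 6 cells (8.75 CPM, 3.52 to 18.0). No cell held more than 2 UMIs of either gene. Of 35 family names looked up, 2 more were in the table. SIP2-1, the other kind of small basic channel, had 8 UMIs in 8 cells, and TIP3-1, a vacuolar channel known from seeds, had 3 UMIs in 3 cells. Of 18 names of proton pumps, vacuolar transporters, potassium channels and expansins, none was in the table.

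The order of the members shifted with the pool. Over the 4 pools SIP1-2 averaged 564 ± 75.4 CPM (SD, n = 4 pools) and TIP1-1 averaged 568 ± 433 CPM. The averages were 340 ± 227.1 CPM for PIP2-1, 235.6 ± 191.8 CPM for PIP2-2, 164.06 ± 43.8 CPM for NIP1-1 and 142.1 ± 34.0 CPM for PIP1-3. The members were counted in the same 4 pools, and in each of them TIP1-1 stood above PIP2-1 and PIP2-1 above PIP2-2. In pool 6 the intervals of these members overlapped. The places of SIP1-2, NIP1-1 and PIP1-3 changed with the pool. A clear step lay below PIP1-3, whose lowest pool had 98.1 CPM while the highest pool of NIP3-1 had 33.4 CPM. SIP1-2 ranked first in pools 6 and 11, and TIP1-1 ranked first in pools 28 and 29.

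The UMIs of each gene were spread over the cells to different degrees. By the share in the richest cells, which also depends on depth and on a gene's total, PIP2-1 was the most even of the 6 members with at least 20 UMIs. Its 10 richest cells held 21.2% of its UMIs, and 34 cells held the first 50%. For NIP1-1 the 10 richest cells held 46.8%, and 12 cells held the first 50%. TIP1-1 followed NIP1-1, with 37.0% in 10 cells. At an equal level in every cell, the depths would have given NIP1-1 a UMI in 32.5% of cells, and it had one in 16.8%. The same figures were 60.9% and 37.6% for TIP1-1, 62.0% and 45.2% for SIP1-2, 48.1% and 39.9% for PIP2-1, 40.2% and 32.0% for PIP2-2, and 28.2% and 23.8% for PIP1-3. UMIs that strayed between cells of a pool were not measured here, and no cell type known to lack these genes was labelled, so a single UMI in a cell does not show expression there.

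**Figure D1:**
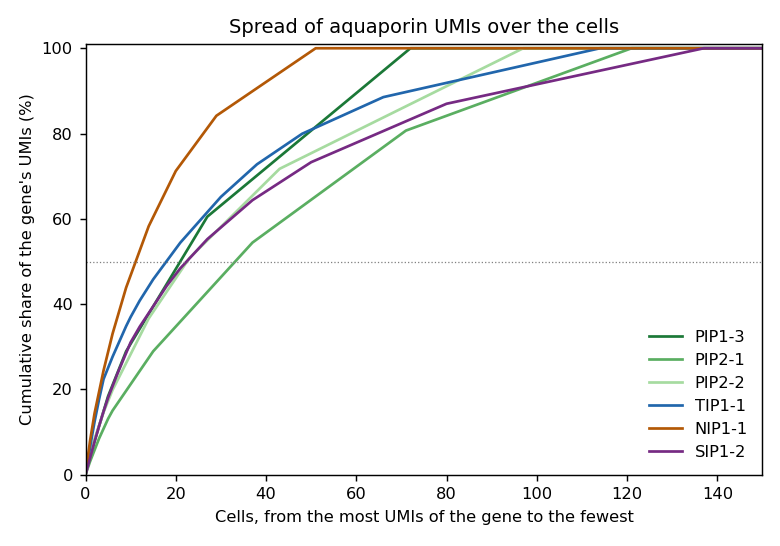
Cumulative share of each gene's UMIs (vertical axis, percent) as cells are added from the richest to the poorest (horizontal axis, number of cells), for the 6 aquaporins with at least 20 UMIs; the dotted line marks 50%. NIP1-1 climbs fastest, reaching 50% within 12 cells, and PIP2-1 slowest, within 34.

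Individual cells showed how the members were combined. Among the 3 cells richest in SIP1-2, with 17, 17 and 16 UMIs of it and 6431 to 8944 UMIs in all, none had a UMI of any of the other 7 members. They came from pools 6 and 11 and held 24, 17 and 37 UMIs of GAPC3. The cells ranked 4 and 5, both from pool 29, had 15 and 14 UMIs of SIP1-2, and both held UMIs of TIP1-1. The 3 cells richest in TIP1-1 had 27, 25 and 22 UMIs of it, and each held UMIs of PIP1-3 and PIP2-1 as well. A cell of pool 11 reached 5395 CPM of TIP1-1, with 22 of its 4078 UMIs, and also held 7 UMIs of NIP1-1 and none of SIP1-2. The cell richest in NIP1-1, from pool 6, had 11 UMIs of it among 8027. By number of members, 88 cells held 1 aquaporin, 53 held 2, 46 held 3, 28 held 4, 21 held 5, 9 held 6 and 1 held 7. Median depth was 819 UMIs in cells with none, 1652 UMIs with 1 member and 7103 UMIs with 6. These numbers therefore moved with depth.

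Pools 6 and 11 together had lower levels of TIP1-1 and PIP2-1 than pools 28 and 29, while the intervals of the ratios of SIP1-2, NIP1-1 and PIP1-3 included no difference. TIP1-1 had 154.9 CPM in pool 6 and 237.9 CPM in pool 11, against 894 CPM in pool 28 and 987 CPM in pool 29. The 2 pairs of pools did not overlap, and pooled over cells the levels were 202.8 CPM in pools 6 and 11 and 954 CPM in pools 28 and 29, a log2 ratio of -2.18 with 10 CPM added to both (-2.58 to -1.90 for the ratio without that addition). PIP2-1 had 123.9 and 177.5 CPM in pools 6 and 11, against 460 and 599 CPM in pools 28 and 29, a log2 ratio of -1.77 (-2.24 to -1.43). PIP2-2 had 118.7 and 113.3 CPM in pools 6 and 11, against 192.2 CPM in pool 28 and 518 CPM in pool 29, a log2 ratio of -1.72 (-2.29 to -1.34). The interval of PIP2-2 in pool 28 (121.8 to 288.4 CPM) overlapped those of pools 6 and 11, and without pool 29 its log2 ratio was -0.69.

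SIP1-2 had 563 and 476 CPM in pools 6 and 11, against 660 and 559 CPM in pools 28 and 29, a log2 ratio of -0.21 (-0.49 to 0.06). NIP1-1 had 144.5 and 218.98 CPM in pools 6 and 11, against 116.97 and 175.8 CPM in pools 28 and 29, a log2 ratio of 0.26 (-0.24 to 0.80). For both genes the pools overlapped. PIP1-3 had 98.1 and 139.7 CPM in pools 6 and 11, against 150.4 and 180.3 CPM in pools 28 and 29, a log2 ratio of -0.44 (-1.03 to 0.08). NIP3-1 had 3 UMIs in pools 6 and 11 and 11 UMIs in pools 28 and 29, and PIP2-6 had 3 and 4. No UMI of PIP2-6 was seen in pool 11, which allows up to 11.3 CPM.

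Of the 6 members with at least 50 UMIs, 3 had a log2 ratio below -1 between the pairs of pools (TIP1-1, PIP2-1 and PIP2-2) and none was above 1. Among the 3171 features with at least 50 UMIs, 10.4% were below -1 and 5.14% above 1, with a median of -0.20. The sum of the 8 genes stood at 1223 and 1371 CPM in pools 6 and 11, against 2523 and 3060 CPM in pools 28 and 29, a log2 ratio of -1.13 (-1.28 to -0.99).

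The pools also held different numbers of cells with the marker genes used further on, and depth moved with the pools as given above. Of cells with at least 1000 UMIs, 2, 14, 13 and 21 of 42, 65, 43 and 66 in pools 6, 11, 28 and 29 carried photosynthesis transcripts, 9, 4, 1 and 1 carried GAPC3, and 4, 8, 4 and 4 carried C2, each with at least 2 UMIs after a draw of 1000. An added comparison, chosen after the data had been seen, kept only cells with no UMI of these markers after the draw. They were 42 cells of pools 6 and 11 and 36 cells of pools 28 and 29, and some held marker UMIs before the draw. TIP1-1 then stood at 290.8 CPM in pools 6 and 11 and 1089 CPM in pools 28 and 29 (log2 ratio -1.87), and PIP2-1 at 191.5 and 551 CPM (-1.48). PIP2-2 stood at 212.8 and 315 CPM, a log2 ratio of -0.54 with an interval that included no difference (-1.39 to 0.27). PIP1-3 and NIP1-1 each stood at 177.3 CPM in pools 6 and 11 and 104.99 CPM in pools 28 and 29, with intervals that included no difference. SIP1-2 stood at 290.8 CPM in pools 6 and 11 and 446 CPM in pools 28 and 29, a log2 ratio of -0.60 (-1.31 to 0.083), against -0.21 over all cells. Other differences between the pools cannot be told apart from the pools themselves.

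**Figure D2:**
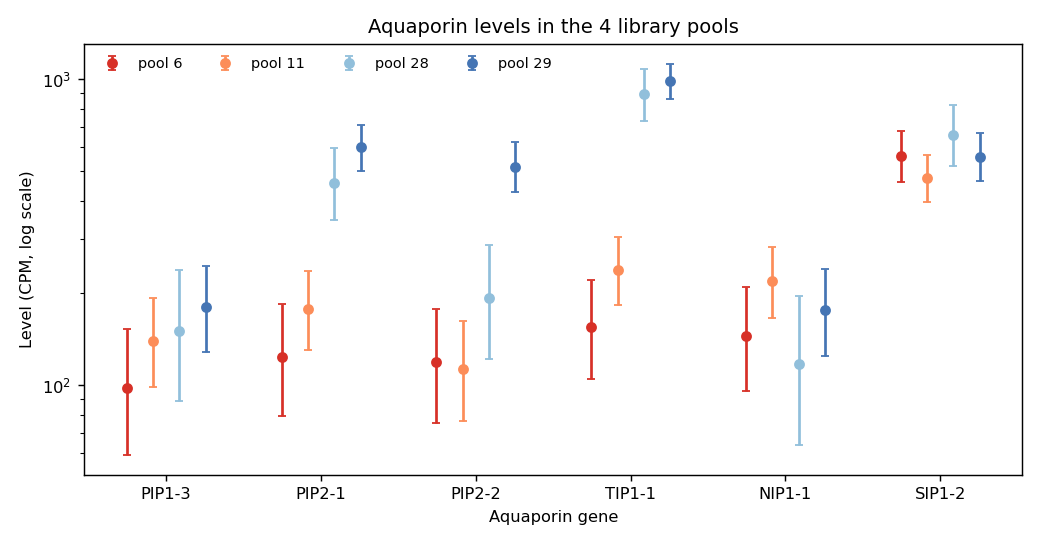
Level of the 6 aquaporins with at least 20 UMIs in pools 6, 11, 28 and 29 (vertical axis, CPM on a log scale; points, UMIs summed over the cells of a pool; bars, exact 95% intervals for counting error). TIP1-1 and PIP2-1 lie lower in pools 6 and 11 than in pools 28 and 29, PIP2-2 is high in pool 29 alone of the 4, and SIP1-2 spans 476 to 660 CPM.

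Whether members occurred in the same cells was examined at equal depth. The cells with at least 1000 UMIs, 42, 65, 43 and 66 in pools 6, 11, 28 and 29, were thinned to 1000 UMIs each, as the exact average over all draws, and the number of cells with both members was divided by the number that their separate shares within each pool would give. Of 15 pairs among the 6 members, 11 had a ratio above 1, including all 10 pairs without SIP1-2 and 1 of the 5 with it. The 10 became 8 at 500 UMIs per cell and 7 without pool 29, where PIP2-2 had ratios of 0.71 to PIP1-3, 0.93 to PIP2-1 and 0.72 to NIP1-1. Set against every other feature with at least 100 UMIs, 1285 in number, the shares of ratios above 1 were 48.2% for PIP1-3, 49% for PIP2-1, 48.9% for PIP2-2, 51.9% for TIP1-1, 51.1% for NIP1-1 and 66.2% for SIP1-2. The cells behind a pair share their libraries and, before thinning, their depth, so the ratios are descriptions.

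The vacuolar TIP1-1 and NIP1-1 had the highest ratio of the 15 pairs, at 1.89. TIP1-1 was detected in 52.4% of cells with NIP1-1 and in 25.0% of cells without it. The ratios within pools 6, 11, 28 and 29 were 2.58, 2.64, 1.42 and 1.79, all above 1. They rest on 13.8 cells with both on average over draws, out of 61.2 with TIP1-1 and 26.4 with NIP1-1. Of the 1285 features, 0.156% had a ratio with TIP1-1 at least as high as that of NIP1-1, which is itself counted. With NIP1-1, 3.19% had a ratio at least as high as that of TIP1-1, again itself counted.

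PIP1-3 came next, with ratios of 1.56 to TIP1-1, 1.42 to NIP1-1 and 1.36 to PIP2-1. Within pools 6, 11, 28 and 29 its ratios were 2.48, 2.39, 1.16 and 1.51 to TIP1-1, 1.07, 1.75, 1.69 and 1.14 to PIP2-1, but 2.95, 1.22, 0.32 and 1.79 to NIP1-1. Its ratio to PIP2-2 was 1.09, and within pools it was 1.91, 0.43, 0.52 and 1.27. The paralogs PIP2-1 and PIP2-2 had a ratio of 1.08, and within pools it ran from 0.74 in pool 28 to 1.45 in pool 6. SIP1-2 had ratios of 0.75 to PIP2-1, 0.89 to PIP1-3, 0.94 to TIP1-1, 0.98 to PIP2-2 and 1.28 to NIP1-1. SIP1-2 was detected in 25.0% of cells with PIP2-1 and in 35.1% of cells without it, and the ratio was below 1 in each pool, at 0.90, 0.70, 0.71 and 0.75. That ratio moved with the depth used, from 0.60 at 500 UMIs to 0.94 at 2000 UMIs.

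**Figure D3:**
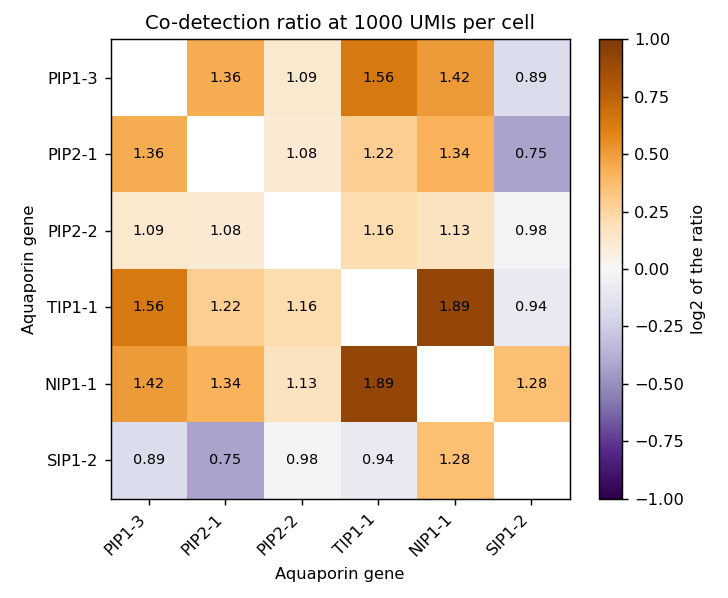
Co-detection ratio of each pair of the 6 aquaporins at 1000 UMIs per cell (numbers, cells with both over the number given by the separate shares within pools; colour, log2 of that ratio, brown above 0 and purple below). TIP1-1 with NIP1-1 is highest at 1.89, and the row of SIP1-2 holds the ratios below 1, down to 0.75 with PIP2-1.

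The members were then followed in cells grouped by genes outside the family. The labels name no cell types, and the cell type marker lists were of little use for naming any. The meiocyte list matched only RAD51B (6 UMIs) of its 10 names, the epidermis list only CR4 (12 UMIs) of 5, the vascular list only LBD6 (22 UMIs) of 4, and the tapetum list none of 7. All 4 names of the endothecium list (CAB1, PSAH, RCA1 and RBCS) were in the table, with 1300 UMIs, and they are photosynthesis genes that other green cells also use. Cells were therefore grouped by UMIs of C2, of GAPC3, or of CAB1, RBCS and PSAH summed, after a draw of 1000 UMIs per cell, and are named by those genes alone. Levels within the groups use all UMIs of the cells.

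Cells with C2, the chalcone synthase gene that opens flavonoid synthesis, had high NIP1-1. In the 20 cells with at least 2 C2 UMIs, NIP1-1 ranged from 0 to 1628 CPM with a median of 692 CPM, and 16 of these cells, 80.0%, had a UMI of it. Of the cells with none, 14.5% had a UMI of NIP1-1, the median was 0 and the highest 1717 CPM, so the ranges overlapped. Summed, the levels were 737 CPM in cells with at least 2 C2 UMIs and 89.1 CPM in cells with none, a log2 ratio of 2.91 (2.48 to 3.62), and the 17 cells with 1 C2 UMI lay between at 499 CPM. Within pool 11, where both sides held at least 5 cells, the log2 ratio was 2.20. The groups had similar median depths, at 2856.5 and 2799 UMIs.

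PIP1-3 was the second member above a log2 ratio of 1 in cells with C2, at 300.2 CPM in cells with at least 2 C2 UMIs and 111.8 CPM in cells with none (1.35, 0.66 to 2.14). TIP1-1 stood at 723 and 452 CPM (0.67, 0.23 to 1.11), and in a second draw its log2 ratio was 1.17. SIP1-2 stood at 792 and 539 CPM (0.54, 0.12 to 0.96). PIP2-1 stood at 204.7 and 302.9 CPM and PIP2-2 at 177.4 and 215.5 CPM, with intervals that included no difference. Pools 6 and 11 supplied 12 of the 20 cells and had lower TIP1-1 as a whole. TIP1-1 stood at 473 and 171.6 CPM in those pools, and at 1369 and 864 CPM in pools 28 and 29. Within pool 11 the log2 ratios were 0.98 for TIP1-1 (0.09 to 1.86), 1.30 for PIP1-3, 0.82 for SIP1-2, -0.29 for PIP2-1 and -0.40 for PIP2-2. Summed over pools, 2 of the 6 members with at least 20 UMIs were above 1, where 8.67% of the features with at least 50 UMIs were. None was below -1, where 18.8% of those features were. NIP members supplied 25.1% of the aquaporin UMIs in cells with at least 2 C2 UMIs and 6.23% in cells with none.

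Cells with GAPC3, a cytosolic glyceraldehyde-3-phosphate dehydrogenase gene of glycolysis, had an aquaporin content made up mainly of SIP1-2. In the 15 cells with at least 2 GAPC3 UMIs, SIP1-2 ranged from 0 to 2643 CPM with a median of 1676 CPM, and 14 cells had a UMI of it. Among the 170 cells with none, its median was 106.3 CPM and its highest 3695 CPM, and 87 cells had a UMI. Summed, SIP1-2 stood at 1561 CPM in cells with at least 2 GAPC3 UMIs and 370 CPM in cells with none, a log2 ratio of 2.05 (1.75 to 2.40), with 750 CPM in the 31 cells with 1 UMI. Within pool 6 it stood at 1389 and 247.3 CPM (2.44). SIP1-2 made up 83.7% of the aquaporin UMIs in cells with at least 2 GAPC3 UMIs (76.8% to 89.1%) and 19.5% in cells with none.

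Summed over pools, the other 5 members with at least 20 UMIs had lower levels in cells with GAPC3. Within pool 6 TIP1-1 did not, and of the 5 only PIP1-3 had an interval that lay below 0. PIP1-3 had no UMI in the 15 cells, which allows up to 36.6 CPM over the group, against 147.3 CPM in cells with none, and the exact interval of the log2 ratio lay below -1.68. PIP2-1 stood at 48.8 CPM in cells with at least 2 GAPC3 UMIs and 354 CPM in cells with none (log2 ratio -2.63, -4.75 to -1.48). PIP2-2 stood at 24.4 and 253.3 CPM (-2.94, -6.44 to -1.497), and TIP1-1 at 146.3 and 553 CPM (-1.85, -2.89 to -1.09). NIP1-1 stood at 85.3 and 190.4 CPM (-1.07, -2.51 to -0.065). Pools 6 and 11 supplied 13 of the 15 cells and had lower TIP1-1 and PIP2-1 as a whole. Within pool 6, TIP1-1 stood at 192.4 and 139.1 CPM (0.44) and PIP2-1 at 85.5 and 115.9 CPM (-0.40), while PIP1-3 had 0 UMIs in 9 cells and 139.1 CPM in cells with none. PIP2-2 had 2 UMIs in those 9 cells (42.7 CPM), against 154.6 CPM in cells with none (-1.64). NIP1-1 stood at 85.5 and 185.5 CPM (-1.03). In that pool, the single one that could be compared, the intervals of TIP1-1, PIP2-1, PIP2-2 and NIP1-1 included no difference. That of PIP1-3 lay below -0.67. Without pool 6 the group had 6 cells, with 3 UMIs of TIP1-1 (log2 ratio -2.86) and none of PIP2-1, which allows up to 85.2 CPM. In a second draw the log2 ratio of PIP1-3 was -2.66.

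In all, 1 of the 6 members was above a log2 ratio of 1 in cells with GAPC3 and 5 were below -1. Of the features with at least 50 UMIs, 15.3% were above and 19.6% below. With the threshold at 1 GAPC3 UMI (46 cells), 1 of the 5 stayed below -1. PIP2-1 then had a log2 ratio of -1.12, PIP2-2 of -0.84, PIP1-3 of -0.45, TIP1-1 of -0.39 and NIP1-1 of -0.21. With at least 3 UMIs (5 cells) none of these 5 members had a UMI, which allows up to 78.4 CPM of each, and the log2 ratio of SIP1-2 was 2.15. The sum of the 8 genes was close between the groups (log2 ratio -0.03, -0.28 to 0.22). Cells with at least 2 GAPC3 UMIs were deeper, with medians of 6431 and 2640.5 UMIs, and 10 of the 15 sat at exactly 2 UMIs after the draw. The part of depth in these values was not tested.

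Cells with the nuclear photosynthesis genes had little NIP1-1 and less SIP1-2. CAB1 encodes a chlorophyll-binding protein of the antenna, RBCS the small subunit of Rubisco and PSAH a subunit of photosystem I. NIP1-1 stood at 26.8 CPM in the 50 cells with at least 2 UMIs of these genes and 242.06 CPM in cells with none, a log2 ratio of -2.78 (-4.83 to -1.91). It had a UMI in 4 of the 50 cells, 8.00%, and in 25.8% of cells with none. The log2 ratios within pools 11, 28 and 29 were -2.96, -1.58 and -3.33, resting on 2, 1 and 2 UMIs in the photosynthesis cells. In pool 28 the interval included no difference (-7.24 to 1.07). SIP1-2 stood at 251.7 CPM in cells with at least 2 photosynthesis UMIs and 705 CPM in cells with none (-1.45, -1.96 to -1.04), and within these pools the log2 ratios were -3.14, -1.35 and -0.79. Without pool 11 the log2 ratio of SIP1-2 was -0.95, and without pool 29 it was -2.24. The cells with none included cells rich in GAPC3 or C2. Cells with no UMI of any marker after the draw had 290.8 CPM of SIP1-2 in pools 6 and 11 and 446 CPM in pools 28 and 29. Cells with at least 2 photosynthesis UMIs had 85.3 and 382 CPM there, with overlapping intervals in pools 28 and 29. For NIP1-1 the levels were 177.3 and 104.99 CPM against 24.4 and 28.7 CPM, again with overlapping intervals in pools 28 and 29. Against the cells with none, the interval of SIP1-2 lay below 0 in every pool compared, and that of NIP1-1 in pools 11 and 29. Among features with at least 50 UMIs, 23.1% were below -1 and the median was -0.53.

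Summed over pools, the interval of PIP2-1 excluded 0, and those of PIP2-2 and PIP1-3 included it. PIP2-1 stood at 396 CPM in cells with at least 2 photosynthesis UMIs and 261.05 CPM in cells with none (0.58, 0.16 to 1.04), but within pools 11, 28 and 29 the log2 ratios were 0.05, 0.78 and -0.03. PIP2-2 stood at 219.6 and 218.3 CPM (0.01, -0.56 to 0.55), and within the pools the log2 ratios were -1.20, -0.07 and -0.25. Without pool 29 the log2 ratio of PIP2-2 was -0.93, and with pools weighted equally it was -0.56. PIP1-3 stood at 117.8 and 154.3 CPM (-0.36, -1.16 to 0.33), and within the pools the log2 ratios were -1.28, 1.10 and -0.52. TIP1-1 had a summed log2 ratio of -0.25 (-0.63 to 0.11), and within pools 11, 28 and 29 it was lower by different amounts. In pool 11 it stood at 29.3 CPM in cells with at least 2 photosynthesis UMIs and 362 CPM in cells with none, in pool 28 at 872 and 969 CPM, and in pool 29 at 771 and 1166 CPM. These log2 ratios were -3.24 (-6.71 to -1.70, on 2 UMIs in the photosynthesis cells), -0.15 (-0.96 to 0.60) and -0.59 (-1.08 to -0.12). Of the 6 members, none was above 1, where 7.69% of the features with at least 50 UMIs were. Below -1 were 2, against 1 (NIP1-1) with the threshold at 1 UMI or without pool 11. At 500 UMIs per cell 3 were, TIP1-1 having a log2 ratio of -1.21. PIP genes supplied 50.4% of the aquaporin UMIs in cells with at least 2 photosynthesis UMIs and 29.8% in cells with none, and NIP genes 2.16% and 12.3%.

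**Figure D4:**
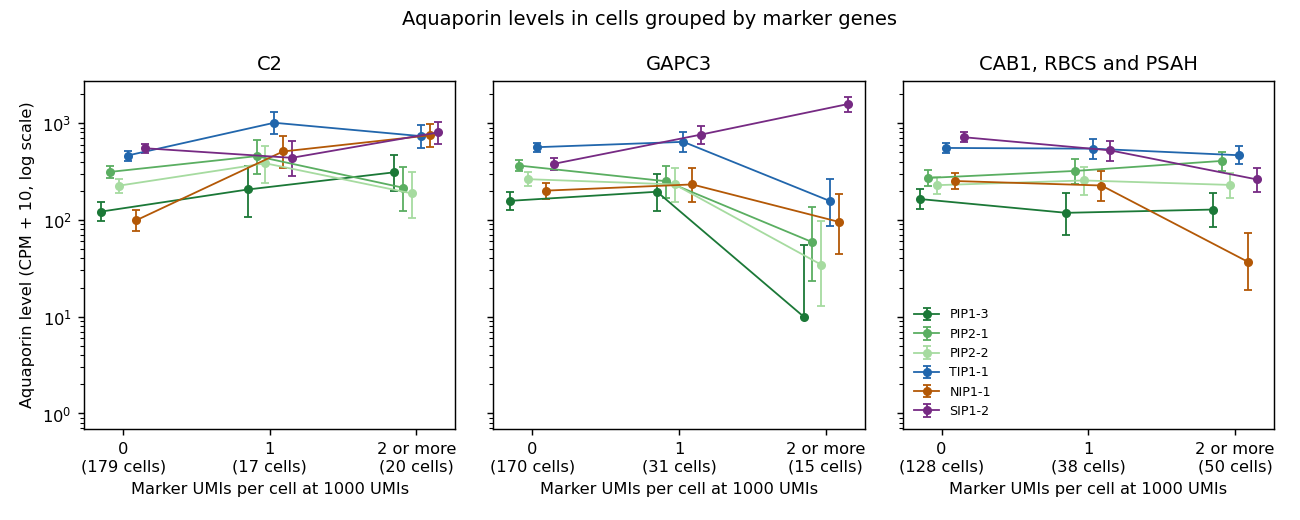
Level of the 6 aquaporins (vertical axis, CPM with 10 added, log scale; bars, exact 95% intervals for counting error) in cells with 0, 1 or at least 2 UMIs of C2, of GAPC3, or of CAB1, RBCS and PSAH summed (horizontal axis, after a draw of 1000 UMIs per cell). NIP1-1 reaches 737 CPM with C2 and drops to 26.8 CPM with the photosynthesis genes, and SIP1-2 reaches 1561 CPM with GAPC3, where PIP1-3 has no UMI.

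The features whose levels ran most closely with each member were named by Pearson's r over the cells with at least 1000 UMIs, centred on pool means, among 481 features, of which 49 bear a symbol. Cells in these correlations share libraries and differ in depth, and the values are descriptions. Of the symbol-bearing features, NIP1-1 ran closest with C2 (r = 0.57), which ranked 12 among all 481. Next were SODCC.2, a cytosolic copper-zinc superoxide dismutase gene (0.40), and TIP1-1 (0.39). The symbol-bearing feature closest to SIP1-2 was GAPC3 (0.48), which ranked 14 among all 481. Next were ANT2, a mitochondrial ADP/ATP carrier gene (0.28), and SODCC.2 (0.24). For TIP1-1 the symbol-bearing features were NIP1-1 (0.39), PIP1-3 (0.30) and SODCC.1 (0.29).

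Of features of any kind, Zm00001d026620 had the highest r with SIP1-2 (0.56) and Zm00001d000506 with TIP1-1 (0.51), and neither has a name in the gene table. Zm00001d000506 was also the highest for NIP1-1 (0.73). PIP1-3 had 0.30 with TIP1-1, 0.26 with SODCC.2 and 0.23 with C2, PIP2-1 had 0.21 each with TIP1-1, the DNA-binding protein gene HMGIY2 and the tubulin gene TUBA1, and PIP2-2 had 0.21 with the tubulin gene TUBA3, 0.19 with the profilin gene PRO5 and 0.18 with HMGIY2. In counts this sparse such weak values are no finding. For PIP2-1, SIP1-2 ranked 472 by r among these features, with r = -0.23.

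**Figure D5:**
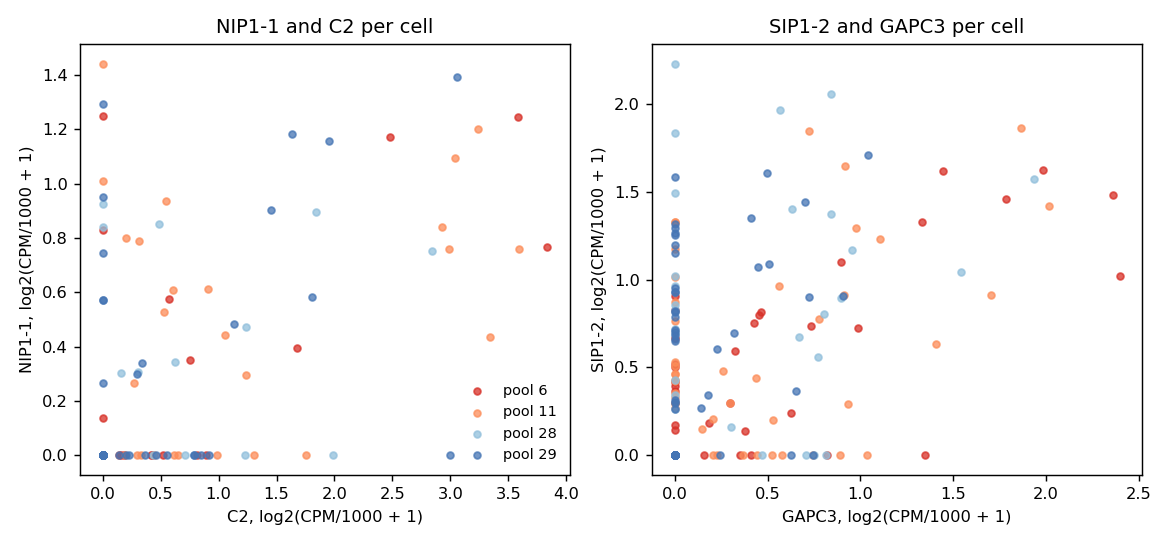
Level of NIP1-1 against C2 (left) and of SIP1-2 against GAPC3 (right) in each cell with at least 1000 UMIs, as log2(CPM/1000 + 1) on both axes, coloured by pool. Most cells high in C2 carry NIP1-1, in all 4 pools, and some cells with no C2 reach the same NIP1-1 levels.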

How the data were processed

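Values deposited by the authors were unnormalized UMI counts of 17140 features (155 with a symbol) in 303 cells of 1 group. The submitters' processing notes name HISAT2 and the build B73 RefGen_v4. Not given in the sources used here were the version, the annotation, the UMI counter and any filter applied to cells. The gene table was that of Zm-B73-REFERENCE-NAM-5.0, another assembly, so it served for names only and no coordinates or sequences are given.

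Counts were summed over cells and scaled to CPM of all UMIs. Intervals are exact, at 95% (Poisson for CPM, Clopper-Pearson for shares, conditional binomial for ratios), and a count of 0 allows up to 3 counts. Log2 ratios have 10 CPM added, which shrinks those of low genes, while their intervals belong to the ratio without that addition. Computing used python 3.11.15, numpy 2.4.6, pandas 2.3.3, scipy 1.17.1 and matplotlib 3.10.9, and the code was checked on simulated data. Depth ran from 203 to 9934 UMIs per cell (median 1780), and the 87 cells under 1000 UMIs, which leave 216, stayed out of co-detection, marker groups and correlations. No doublet caller was run. The pools use 1 set of 96 barcode numbers, 91 of them in at least 2 pools and 44 in all 4, and cells were told apart by pool and barcode.

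The text names all members, the marker genes, family and water-transport list genes found in the table, the 3 symbol-bearing features most correlated with each member of at least 100 UMIs, and the feature of any kind highest for the 2 most abundant members. The same feature of any kind is also given for NIP1-1, chosen after its value was seen. Members and lists were chosen with earlier results of these data known. The comparison of co-detection with all features was added after the ratios had been seen.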

Additional observations from a re-analysis of the deposited data

Results flagged for a closer look

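The 87 cells under 1000 UMIs, which the comparisons at equal depth and by marker gene left out, also held aquaporin transcripts. Over their 53502 UMIs the 8 genes had a level of 2336 CPM (1945 to 2784), above the 56.1 CPM that a count of 0 would allow. A UMI was present in 51 of these cells. The deeper cells stood at 1950 CPM. The shallow cells came more from pools 28 and 29, where 43 of 79 and 66 of 91 cells had at least 1000 UMIs, against 42 of 55 and 65 of 78 in pools 6 and 11. Pools 28 and 29 also had the higher sums of the 8 genes (2523 and 3060 CPM). The part of the pools in this difference was not tested. NIP1-1 had 2 UMIs in the shallow cells (37.4 CPM, 4.53 to 135.04), and PIP2-1 had 32 (598 CPM, 409 to 844). The levels of the 6 members with at least 20 UMIs, and of their sum, were checked over the 4 pools by the gap of the outermost pool to the nearest other, divided by the whole range. The widest was that of PIP2-2 in pool 29, at 0.805 of its range, which is below Dixon's 95% critical value for 4 values, and so were the others.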

How the results depend on the processing

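No log2 ratio whose interval excluded 0 changed sign under the alternatives over several pools, but within single pools TIP1-1 with GAPC3 (pool 6, 0.44) and PIP2-1 with photosynthesis genes (pool 29, -0.03) did, and several values moved beyond their counting intervals. The sum of the 8 genes (1976 CPM) was 2141 CPM as a mean of per-cell levels, 2378 CPM with the 20 most abundant features left out of the scaling, and 2216, 2275, 1880 and 1560 CPM without pools 6, 11, 28 and 29. Without pool 29, TIP1-1 stood at 346 CPM and PIP2-2 at 131.4 CPM over all cells. The log2 ratio of the sum for pools 6 and 11 over 28 and 29 (-1.13) was -0.93 without the 20 most abundant features and -0.94 without pool 29. The number of pairs with SIP1-2 above a ratio of 1 (1 of 5) was 3 at 2000 UMIs per cell and 2 without pool 28. In an alternative added after the data had been seen, it was 2 in cells with no GAPC3 UMI after the draw. For the pairs without SIP1-2 (10 of 10) it was 8 at 500 UMIs, 7 without pool 29 and 9 in cells with no C2 UMI after the draw. In those cells without C2, likewise added, the pair of NIP1-1 and SIP1-2 had a ratio of 1.00. Over all alternatives the ratio of TIP1-1 and NIP1-1 ran from 1.73 to 2.20. The log2 ratio of the sum in cells with C2 (0.75) was 0.98 at 500 UMIs per cell. In cells with GAPC3 (-0.03) it was 0.30 without pool 29. In cells with photosynthesis genes (-0.53) it was -1.08 at 500 UMIs per cell, -0.34 without the 20 most abundant features, -0.12 without pool 11, -1.16 without pool 29 and, as an added alternative, -0.83 with pools weighted equally. The cause was not tested for any of these. With the lower threshold of 1 marker UMI, the log2 ratio in cells with GAPC3 was 1.55 for SIP1-2, and in cells with photosynthesis genes it was -1.10 for NIP1-1 and -0.94 for SIP1-2. Cells with few UMIs limit every member, since a gene at 173.7 CPM gives less than 1 UMI at most depths here. Cells could not be paired by plant, since all form 1 group with no plant named, and no result comes from a test. Ratios within pools, and with pools weighted equally, set cells of the same pool side by side.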

Other observations

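Summed over pools, SIP1-2 differed between cells by their barcode number. Cells with barcodes 49 to 96 stood at 699 CPM (608 to 799) and cells with barcodes 1 to 48 at 455 CPM (398 to 518). The levels for barcodes 49 to 96 were 676, 698, 760 and 696 CPM in pools 6, 11, 28 and 29, and those for barcodes 1 to 48 were 457, 334, 613 and 497 CPM. The intervals lay apart in pool 11 and overlapped in pools 6, 28 and 29. Cells with barcodes 49 to 96 were shallower in each pool, with median depths of 2779.5, 2244, 806.5 and 1124 UMIs, against 3658, 3879, 1579 and 2897.5 UMIs for barcodes 1 to 48. GAPC3 stood at 945, 514, 524 and 173.99 CPM for barcodes 49 to 96 and 557, 346, 294.5 and 170.01 CPM for barcodes 1 to 48. It went the same way in pools 6, 11 and 28, with intervals apart in pool 6 alone, and was close in pool 29. What the barcode numbers stand for beyond the primer is not stated in the sources used here.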
